A study of Rattus norvegicus with 24 samples.

Results

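The BMP and TGF-beta signalling families were followed through a culture model of the neonatal rat testis. The members were the rows of the deposited expression table whose gene symbol matched a fixed pattern for the ligands, receptors, SMAD proteins, ID proteins, latent TGF-beta binding proteins and secreted antagonists of these families, and 58 of 21425 genes matched. Of these, 3 matched the pattern but belong to none of these classes: Bmp1, a procollagen-processing protease, Bmp2k, a kinase, and Tgfbrap1, a receptor-associated protein. Values are in CPM, the share of a library's reads that a gene took, scaled to a common total.

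All cells came from the testes of wild-type Sprague Dawley rats on postnatal day 5, as a whole cell mixture with no cell type enriched or removed, and the cultures were kept in a Matrigel basement membrane gel in serum-free medium. The baseline experiment sampled cells of 1 litter as fresh tissue isolates and after 3, 5 and 7 days of culture, with 3 technical replicate libraries in each group and no hormone added. In the induction experiment, cultures of 3 litters were kept for 10 days and then received luteinizing hormone (LH) at 50 mIU/mL and follicle-stimulating hormone (FSH) at 20 mIU/mL, the pituitary hormones that act on Leydig and Sertoli cells. Each litter gave 1 library before the hormones (0 h) and 1 library at 2, 12 and 48 h after them, each pooled from 3 cultures. No hormone-free library was collected at 2, 12 or 48 h, so time in culture and hormone cannot be told apart, and baseline p-values measure the spread between technical replicates of 1 litter.

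In this family a dimeric ligand brings together type I and type II receptor kinases, which phosphorylate receptor-regulated SMAD proteins. TGF-betas and activins act mainly through SMAD2 and SMAD3 and BMPs through SMAD1, SMAD5 and SMAD9, in each case with SMAD4, while SMAD6 and SMAD7 inhibit the pathway and the Id genes are classical BMP targets. TGF-beta is secreted in a latent form that latent TGF-beta binding proteins anchor in the matrix, and noggin and chordin bind BMPs outside the cell. In the postnatal testis, Sertoli and peritubular cells produce TGF-betas and activins, and BMP4 acts on spermatogonia.

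Library totals recovered from the CPM steps held about 17260000 to 30400000 reads in baseline libraries and 15794000 to 28299000 in induction libraries. The floor used here, 3 reads, was therefore worth 0.0987 to 0.174 CPM in baseline libraries and 0.106 to 0.19 CPM in induction libraries. Genes were tested when they reached 1 CPM in at least 3 libraries of an experiment, which 44 members did among baseline libraries and 43 among induction libraries, 42 of them in both. Another 13 members passed in neither: the ligands Bmp5, Bmp8a, Bmp8b, Bmp10, Bmp15, Gdf2, Gdf3, Gdf5, Gdf7, Gdf9 and Gdf10, the antagonist Grem1 and the receptor Acvr1c. Their highest value in any library was 0.737 CPM, and Bmp10 was at 0 in all 24 libraries, which limits it to less than the 3 reads above in each. Smad9 passed only in the induction experiment and Tgfbr3l and Gdf15 only in the baseline. Tgfbr3l read 1.27 to 3.30 CPM in the baseline and 0 in every induction library, and Smad9 read 0 to 0.521 CPM in the baseline and 6.73 to 13.4 CPM in the induction, so levels were compared only within an experiment. The libraries were nondirectional, so reads of overlapping genes cannot be separated, and the values of Gdf15, Ltbp3, Nog, Acvr1, Bmpr2, Acvr2a and Bmp2k, each over another protein-coding gene in the RefSeq annotation, are uncertain in both experiments. A noncoding RNA or pseudogene is annotated over Tgfb2, Bmp4, Ltbp1, Bmpr1a, Acvr1b, Tgfbr3, Smad2, Smad5, Smad9, Id1 and Bmp1. Bulk libraries cannot tell fewer cells of a type from less RNA per cell.

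Most tested members changed in culture. Against tissue, 20 of the 44 tested members rose and 10 fell at day 3, 23 rose and 8 fell at day 5, and 23 rose and 7 fell at day 7. Among all 13055 genes tested, 29.1% rose and 26.8% fell at day 3, 29.6% rose and 30.3% fell at day 5, and 28.5% rose and 31.4% fell at day 7. The shares of members that rose, 45.5%, 52.3% and 52.3%, were thus above the background at each day, and the shares that fell, 22.7%, 18.2% and 15.9%, were below it. The median member lay at log2 fold changes of 0.43, 0.38 and 0.43, beside 0.02, -0.03 and -0.05 for all tested genes. A total of 19 members rose at all 3 days, and Id1, Id2, Id4 and Smad6 fell at all 3. Calls are at a limma adjusted p under 0.05, fold changes are differences of log2(CPM + 1) with their standard error, n = 3 libraries per group, and values are given in replicate order.

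Markers of cell types moved in the same comparisons. The germ cell markers, a list that holds Id4 itself, fell for 9 of 10 genes at each day, and their summed level went from 542 to 574 CPM in tissue to 93.2 to 133 CPM at day 3 and 95.8 to 124 CPM at day 7. Peritubular myoid and smooth muscle markers rose for 9 of 10 genes at each day, from 1632 to 1816 CPM to 3591 to 4059 CPM at day 3 and 4773 to 5531 CPM at day 7, and 3 of 3 tested mesothelial markers rose, from 13.3 to 15.8 CPM to 209 to 232 CPM at day 3. Sertoli cell markers rose for 7 of 9 tested genes at day 3, 6 at day 5 and 5 at day 7. Their sums were 2899.6 to 2982 CPM in tissue and 5362 to 5743 CPM at day 3. At day 3, 4 of 7 tested endothelial markers fell while 1 rose, with sums of 106 to 120.7 CPM in tissue and 144 to 173 CPM at day 3. Most of these sums came from Cdh5, with means of 80.9 and 103.5 CPM, and Kdr, with 8.95 and 47.8 CPM. Mean Tie1 went from 4.52 to 0.461 CPM and mean Vwf from 7.91 to 3.49 CPM. Of 8 tested macrophage markers 1 rose and 2 fell at day 3, and 1 rose and 4 fell at day 7. The macrophage sums went from 73.5 to 86.6 CPM in tissue to 25.9 to 35.2 CPM at day 7. Of 7 tested Leydig cell markers 2 rose and 3 fell at each day. No defining germ cell or myoid marker was at 0 in any group. The part of these shifts in the changes of the members was not tested.

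**Figure D1:**
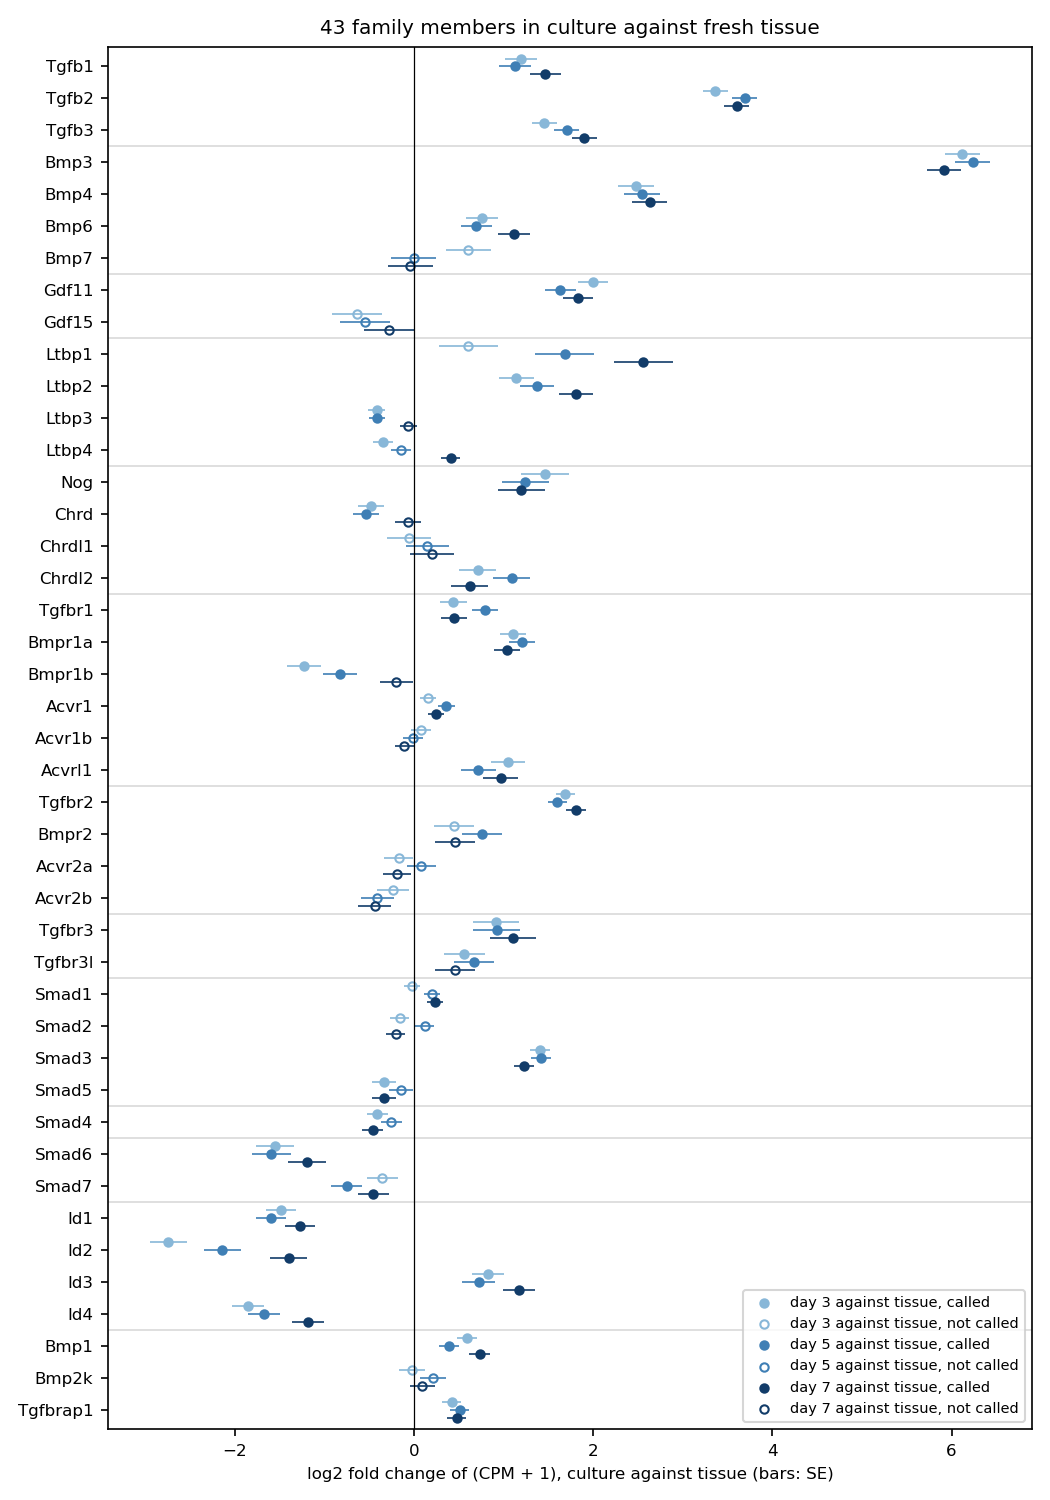
Log2 fold change of (CPM + 1) against tissue (x axis; bars are standard errors, filled points are called) of 43 of the 44 tested members at days 3, 5 and 7 of culture, grouped by role, with 3 libraries per group. Bmp3, Tgfb2 and Bmp4 lie far on the rising side at each day, and Id2, Id4, Smad6 and Id1 on the falling side.

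The 3 TGF-beta ligands all rose in culture. Tgfb2 had the largest change of the 3. Tgfb2 read 17.4, 15.3 and 17.8 CPM in the tissue and 205, 185 and 159 CPM at day 3. Tgfb2 then read 216, 207 and 267 CPM at day 5 and 211, 185 and 254 CPM at day 7. Every culture library was above every tissue library, and the log2 fold changes were 3.36 ± 0.14 at day 3, 3.69 ± 0.14 at day 5 and 3.60 ± 0.14 at day 7 (limma adjusted p 3.16e-10 to 8.58e-10). Tgfb1 read 63.9, 64.0 and 62.3 CPM in the tissue and 133, 130.1 and 181 CPM at day 3. Tgfb1 then read 136, 144 and 139 CPM at day 5 and 199, 126 and 221 CPM at day 7. Tgfb1 rose at each day without overlap with tissue, by log2 fold changes of 1.20 ± 0.18 at day 3, 1.13 ± 0.18 at day 5 and 1.47 ± 0.18 at day 7 (limma adjusted p 9.18e-06 to 1.01e-04). Tgfb3 read 18.3, 16.6 and 17.9 CPM in the tissue and 52.0, 50.6 and 47.3 CPM at day 3. Tgfb3 then read 58.6, 67.6 and 53.2 CPM at day 5 and 66.0, 56.4 and 86.2 CPM at day 7. Tgfb3 likewise rose at each day without overlap, by 1.45 ± 0.14 at day 3, 1.70 ± 0.14 at day 5 and 1.90 ± 0.14 at day 7 (limma adjusted p 1.23e-07 to 1.79e-06).

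Of the 9 BMP ligands, 4 were tested, and Bmp3, Bmp4 and Bmp6 rose at all 3 days. Bmp3, an unusual family member that opposes osteogenic BMP signals, was low in tissue and high in culture. Bmp3 read 0.614, 1.79 and 1.09 CPM in the tissue and 186, 145 and 115 CPM at day 3. Bmp3 then read 157, 181 and 139 CPM at day 5 and 132, 125 and 122.6 CPM at day 7. The tissue libraries held 14, 39 and 33 reads of Bmp3 and the baseline culture libraries 2178 to 4919, and the log2 fold changes of 6.12 ± 0.19 at day 3, 6.24 ± 0.19 at day 5 and 5.92 ± 0.19 at day 7 (limma adjusted p 7.27e-11 to 1.01e-10) were the largest of all members in each of the 3 comparisons. Bmp4, a ligand that acts on early spermatogonia, was also low in tissue and higher in all culture libraries. Bmp4 read 2.76, 1.97 and 2.76 CPM in the tissue and 17.0, 15.6 and 23.4 CPM at day 3. Bmp4 then read 16.1, 19.3 and 23.1 CPM at day 5 and 20.3, 16.8 and 25.3 CPM at day 7. For Bmp4 the log2 fold changes were 2.48 ± 0.20 at day 3, 2.55 ± 0.20 at day 5 and 2.63 ± 0.20 at day 7 (limma adjusted p 1.39e-07 to 3.01e-07). Bmp6 rose less, from 9.87, 9.86 and 11.2 CPM in the tissue to 15.7, 17.4 and 21.6 CPM at day 3, 15.1, 17.5 and 19.4 CPM at day 5 and 26.9, 17.6 and 27.2 CPM at day 7, with no overlap with tissue and log2 fold changes of 0.76 ± 0.18 at day 3, 0.70 ± 0.18 at day 5 and 1.12 ± 0.18 at day 7 (limma adjusted p 1.13e-04 to 0.00416).

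Bmp7 differed from these ligands in its spread. Bmp7 read 11.9, 12.98 and 13.4 CPM in the tissue and 23.02, 17.6 and 19.5 CPM at day 3. Bmp7 then read 14.2, 18.6 and 7.62 CPM at day 5 and 13.998, 14.4 and 9.28 CPM at day 7. All day 3 libraries were above the tissue, while the day 5 and day 7 libraries lay on both sides of it. The day 3 difference missed the threshold (log2 fold change 0.61 ± 0.25, limma adjusted p = 0.0550) and passed it without any single library among day 5 replicates 2 and 3 and day 7 replicate 3 (limma adjusted p 0.00853 to 0.0473), and also with a pseudocount of 5, edgeR, DESeq2 and only the 2 groups compared (adjusted p 0.00316 to 0.0484). It was not called at day 5, or at day 7 with a log2 fold change of -0.04 ± 0.25.

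Among the growth and differentiation factors, Gdf11, a ligand of activin type II receptors, rose at each day. Gdf11 read 5.17, 3.99 and 5.92 CPM in the tissue and 22.2, 21.6 and 24.8 CPM at day 3. Gdf11 then read 17.0, 22.2 and 14.2 CPM at day 5 and 21.9, 19.0 and 19.9 CPM at day 7. No culture library of Gdf11 overlapped the tissue, and its log2 fold changes were 2.00 ± 0.17 at day 3, 1.63 ± 0.17 at day 5 and 1.83 ± 0.17 at day 7 (limma adjusted p 5.52e-07 to 3.16e-06). Gdf15, a stress-induced divergent ligand, was between 1.22 and 4.36 CPM in all baseline libraries and was not called, at -0.64 ± 0.28, -0.54 ± 0.28 and -0.28 ± 0.28. Its day 3 difference passed without any single library among day 3 replicate 1 and day 7 replicates 1 and 2 (limma adjusted p 0.0339 to 0.0461), and also with only the 2 groups compared (adjusted p = 0.0379).

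**Figure D2:**
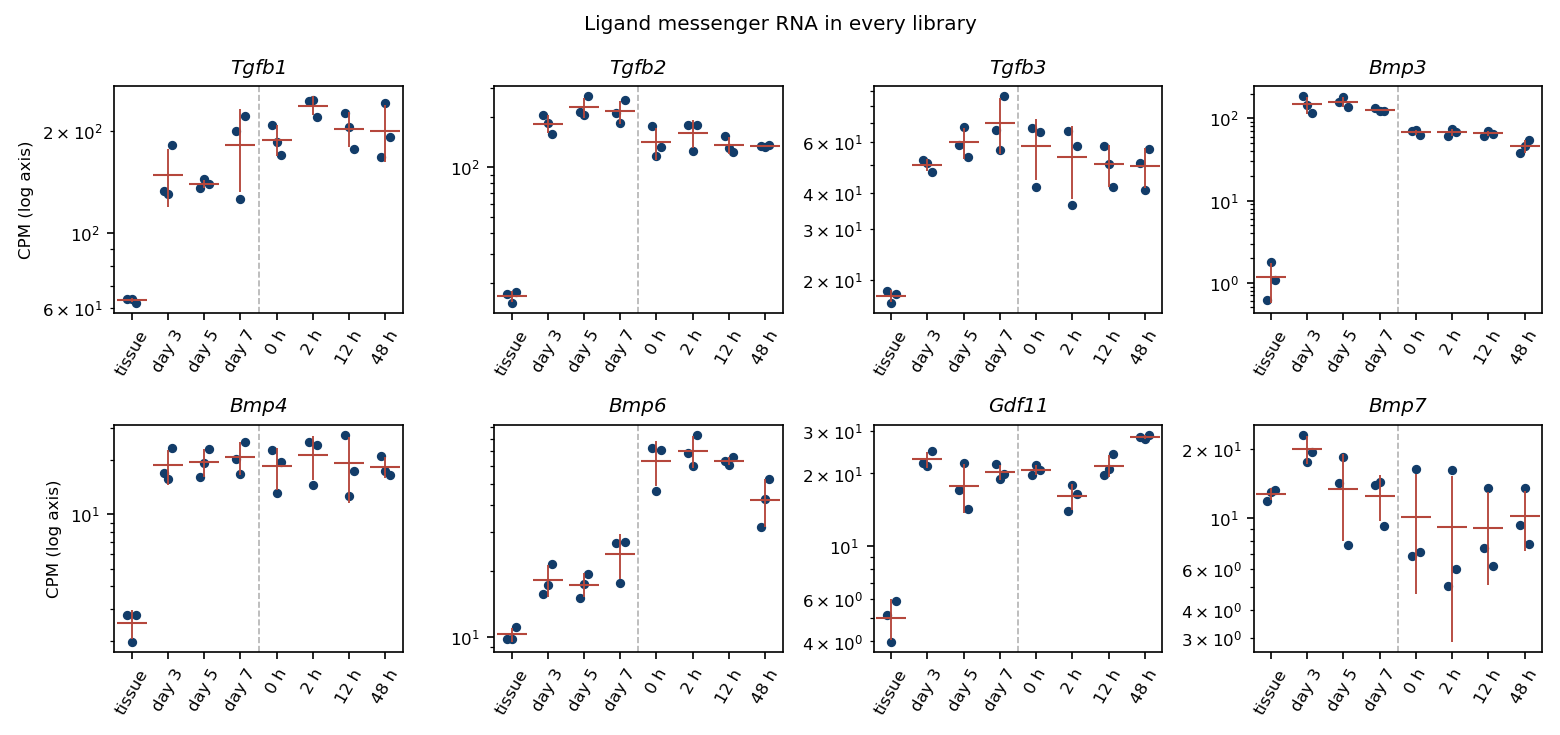
CPM of ligand genes in every library (points; log y axis) across the 4 baseline and 4 induction groups, which a dashed line separates, with the group mean and SD of 3 libraries in red. Tgfb2 sits at 15.3 to 17.8 CPM in tissue and at 159 CPM or more in every baseline culture, and Bmp3 goes from 0.614 to 1.79 CPM to 115 CPM or more.

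The 4 latent TGF-beta binding proteins changed at different times. Ltbp1 missed the threshold at day 3 and climbed afterwards. Ltbp1 read 33.0, 37.1 and 34.0 CPM in the tissue and 42.0, 68.1 and 52.4 CPM at day 3. Ltbp1 then read 108, 64.8 and 208 CPM at day 5 and 156, 201 and 293 CPM at day 7. Day 5 replicate 3 stood above the other day 5 libraries, and all culture libraries were above all tissue libraries. Its log2 fold changes were 0.60 ± 0.33 at day 3 (limma adjusted p = 0.135), 1.68 ± 0.33 at day 5 (limma adjusted p = 6.44e-04) and 2.56 ± 0.33 at day 7 (limma adjusted p = 1.78e-05). The day 3 difference passed without day 5 replicate 3 (limma adjusted p = 0.0384), and also with only the 2 groups compared (adjusted p = 0.00889).

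Ltbp2, a matrix protein that unlike the other LTBPs does not bind latent TGF-beta, rose at each day. Ltbp2 read 167, 168 and 159 CPM in the tissue and 395, 346 and 356 CPM at day 3. Ltbp2 then read 412, 352 and 541 CPM at day 5 and 549, 433 and 815 CPM at day 7. No culture library of Ltbp2 overlapped the tissue, and its log2 fold changes were 1.14 ± 0.19 at day 3, 1.37 ± 0.19 at day 5 and 1.81 ± 0.19 at day 7 (limma adjusted p 3.22e-06 to 2.14e-04). Ltbp3 and Ltbp4 were below tissue at day 3. Ltbp3 went from 500.4, 498 and 490.5 CPM to 369.9, 357 and 386 CPM at day 3 (log2 fold change -0.42 ± 0.09, limma adjusted p = 0.00186) and was back at 511, 455 and 458 CPM at day 7, where it was not called (log2 fold change -0.07 ± 0.09, limma adjusted p = 0.562). Ltbp4, which takes part in elastic fibre assembly, was the only member called in opposite directions. Ltbp4 read 1479, 1317 and 1377 CPM in the tissue and 1033, 1147 and 1095 CPM at day 3. Ltbp4 then read 1277, 1249 and 1239 CPM at day 5 and 1643, 1801 and 2116 CPM at day 7. It fell at day 3 (log2 fold change -0.35 ± 0.11, limma adjusted p = 0.0141), was not called at day 5 (-0.15 ± 0.11) and rose at day 7 (log2 fold change 0.41 ± 0.11, limma adjusted p = 0.00517). Its day 3 call was lost without any single library among tissue replicate 1 and day 3 replicate 1 (limma adjusted p 0.0581 to 0.0624).

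**Figure D3:**
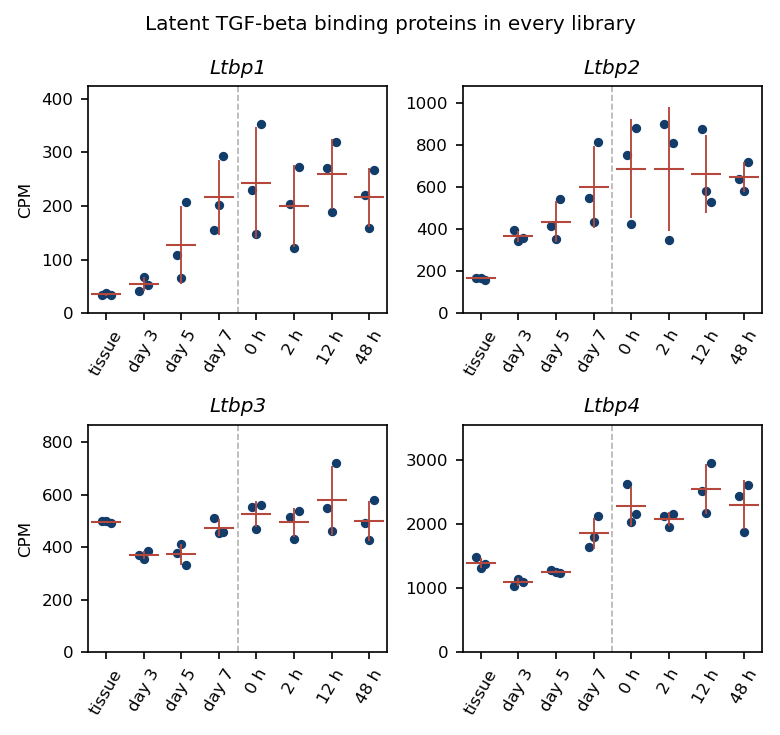
CPM of Ltbp1, Ltbp2, Ltbp3 and Ltbp4 in every library (points; linear y axis) of the 8 groups, with the mean and SD of 3 libraries in red and a dashed line between the experiments. Ltbp1 climbs from 33.0 to 37.1 CPM in tissue to 156 CPM or more at day 7, while Ltbp3 and Ltbp4 dip at day 3.

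Of the secreted BMP antagonists, noggin rose and chordin fell. Nog read 2.98, 2.80 and 2.96 CPM in the tissue and 9.21, 9.25 and 10.9 CPM at day 3. Nog then read 7.995, 13.6 and 5.03 CPM at day 5 and 10.8, 7.197 and 6.49 CPM at day 7. No culture library of Nog overlapped the tissue, and the log2 fold changes were 1.46 ± 0.27 at day 3, 1.24 ± 0.27 at day 5 and 1.20 ± 0.27 at day 7 (limma adjusted p 3.96e-04 to 0.00154). Chrd read 27.2, 25.3 and 25.5 CPM in the tissue and 15.8, 17.4 and 22.4 CPM at day 3. Chrd then read 15.1, 18.6 and 19.5 CPM at day 5 and 24.5, 22.7 and 26.9 CPM at day 7. Chrd fell at day 3 (log2 fold change -0.48 ± 0.15, limma adjusted p = 0.0123) and at day 5 (log2 fold change -0.53 ± 0.15, limma adjusted p = 0.00631) and was not called at day 7 (-0.07 ± 0.15), where its libraries overlapped the tissue values. The day 3 call of Chrd was lost without day 3 replicate 1 (limma adjusted p = 0.0646).

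Grem1 read 0.307, 0.642 and 0.197 CPM in the tissue and 0.340, 0.184 and 0.159 CPM at day 3. Grem1 then read 0.116, 0.0807 and 0 CPM at day 5 and 0.516, 0.390 and 0.406 CPM at day 7. All Grem1 values were under 1 CPM and none was tested. The chordin-like genes were low. Chrdl2 read 3.42, 3.03 and 3.16 CPM in the tissue and 7.02, 4.57 and 6.29 CPM at day 3. Chrdl2 then read 8.17, 6.33 and 9.63 CPM at day 5 and 4.70, 7.41 and 4.62 CPM at day 7. Chrdl2 rose at each day, by 0.71 ± 0.21 at day 3, 1.09 ± 0.21 at day 5 and 0.62 ± 0.21 at day 7 (limma adjusted p 4.85e-04 to 0.0187). The day 7 call of Chrdl2 was lost without any single library among tissue replicate 2 and day 7 replicate 2 (limma adjusted p 0.0559 to 0.0937). Chrdl1 stayed between 0.702 and 2.12 CPM and was not called.

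Among the type I receptors, Bmpr1a and Acvrl1 rose at all 3 days, as did Tgfbr1, and Bmpr1b fell before it recovered. Bmpr1a read 116, 122.6 and 105 CPM in the tissue and 254, 285 and 208 CPM at day 3. Bmpr1a then read 280.3, 233 and 283 CPM at day 5 and 199.8, 288 and 227 CPM at day 7. The type I BMP receptor Bmpr1a was above tissue in every culture library, with log2 fold changes of 1.11 ± 0.14 at day 3, 1.20 ± 0.14 at day 5 and 1.04 ± 0.14 at day 7 (limma adjusted p 1.05e-05 to 3.55e-05). Acvrl1, the type I receptor known from endothelium, went from 16.6, 13.2 and 14.01 CPM in the tissue to 34.1, 25.4 and 34.8 CPM at day 3, 24.1, 32.4 and 18.9 CPM at day 5 and 32.2, 24.1 and 32.6 CPM at day 7, with log2 fold changes of 1.05 ± 0.19 at day 3, 0.72 ± 0.19 at day 5 and 0.97 ± 0.19 at day 7 (limma adjusted p 4.50e-04 to 0.00599). At day 3, 4 of 7 tested endothelial markers fell and 1 rose. Their summed level, most of it from Cdh5 and Kdr, went from 106 to 120.7 CPM in tissue to 144 to 173 CPM. The part of these markers in the rise of Acvrl1 was not tested.

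Tgfbr1 read 59.1, 60.9 and 56.5 CPM in the tissue and 80.1, 82.1 and 78.2 CPM at day 3. Tgfbr1 then read 93.5, 86.7 and 133 CPM at day 5 and 68.0, 81.7 and 93.1 CPM at day 7. The TGF-beta type I receptor Tgfbr1 rose, by log2 fold changes of 0.44 ± 0.15 at day 3, 0.79 ± 0.15 at day 5 and 0.44 ± 0.15 at day 7 (limma adjusted p 4.12e-04 to 0.0207), and day 5 replicate 3 was again the highest library. Its day 3 call was lost without any single library among tissue replicates 1 and 3 and day 3 replicates 1 and 2 (limma adjusted p 0.0510 to 0.0670). Its day 7 call was lost without any single library among tissue replicate 3 and day 7 replicate 3 (limma adjusted p 0.0598 to 0.0871). Bmpr1b read 5.31, 4.31 and 5.76 CPM in the tissue and 1.40, 2.10 and 1.37 CPM at day 3. Bmpr1b then read 2.61, 2.02 and 2.70 CPM at day 5 and 3.38, 5.20 and 4.52 CPM at day 7. The other type I BMP receptor, Bmpr1b, fell at day 3 (log2 fold change -1.23 ± 0.19, limma adjusted p = 9.47e-05) and at day 5 (log2 fold change -0.83 ± 0.19, limma adjusted p = 0.00181) and was not called at day 7 (-0.20 ± 0.19), where 1 of 3 libraries lay below the tissue range.

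Acvr1 read 62.1, 59.2 and 57.8 CPM in the tissue and 64.7, 67.3 and 66.9 CPM at day 3. Acvr1 then read 72.8, 78.2 and 79.9 CPM at day 5 and 64.3, 75.7 and 73.7 CPM at day 7. Acvr1, a type I receptor for BMPs and activins, was not called at day 3 (0.15 ± 0.09) and rose by small amounts at day 5 (log2 fold change 0.36 ± 0.09, limma adjusted p = 0.00350) and day 7 (log2 fold change 0.25 ± 0.09, limma adjusted p = 0.0282). Its day 7 call was lost without any single library among tissue replicates 2 and 3 and day 7 replicates 2 and 3 (limma adjusted p 0.0744 to 0.103). Acvr1b, the activin type I receptor, lay between 41.3 and 52.6 CPM in all baseline libraries and was not called on any day.

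Of the type II receptors only Tgfbr2 rose at all 3 days. Tgfbr2 read 21.7, 20.5 and 24.4 CPM in the tissue and 77.9, 64.1 and 79.8 CPM at day 3. Tgfbr2 then read 71.4, 72.0 and 63.9 CPM at day 5 and 80.6, 78.0 and 81.2 CPM at day 7. Every culture library of this TGF-beta type II receptor was above every tissue library, with log2 fold changes of 1.69 ± 0.11 at day 3, 1.60 ± 0.11 at day 5 and 1.81 ± 0.11 at day 7 (limma adjusted p 1.60e-08 to 5.72e-08). Bmpr2 read 77.9, 86.2 and 74.0 CPM in the tissue and 125, 148 and 68.2 CPM at day 3. Bmpr2 then read 148, 114 and 143 CPM at day 5 and 91.2, 121.6 and 118 CPM at day 7. The BMP type II receptor rose at day 5 (log2 fold change 0.76 ± 0.22, limma adjusted p = 0.00992) but was not called at day 3 (0.44 ± 0.22) or day 7 (0.46 ± 0.22). Both differences passed without day 3 replicate 3, the lowest day 3 library, with limma adjusted p = 7.73e-04 for day 3 and 0.00891 for day 7, and the day 7 difference also with DESeq2 and only the 2 groups compared (adjusted p 0.00353 to 0.0498).

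The activin type II receptors Acvr2a, at 15.1 to 24.97 CPM, and Acvr2b, at 5.03 to 10.1 CPM, were not called on any day. For Acvr2b the day 5 difference of -0.41 ± 0.18 passed without day 5 replicate 1 (limma adjusted p = 0.0246). Its day 7 difference of -0.44 ± 0.18 passed without any single library among day 5 replicates 1 and 3 (limma adjusted p 0.0142 to 0.0394), and also with a pseudocount of 5 and only the 2 groups compared (adjusted p 0.0166 to 0.0380). Tgfbr3, the co-receptor betaglycan that presents TGF-beta2 and inhibin, rose at each day. Tgfbr3 read 56.9, 51.5 and 50.2 CPM in the tissue and 109.8, 115 and 79.8 CPM at day 3. Tgfbr3 then read 129, 112 and 71.1 CPM at day 5 and 119, 167 and 74.8 CPM at day 7. For Tgfbr3 the log2 fold changes were 0.91 ± 0.26 at day 3, 0.92 ± 0.26 at day 5 and 1.10 ± 0.26 at day 7 (limma adjusted p 0.00237 to 0.00875). Tgfbr3l, a related inhibin co-receptor, lay between 1.27 and 3.30 CPM and rose at day 3 (0.56 ± 0.22) and day 5 (0.67 ± 0.22). The day 3 call of Tgfbr3l was lost without any single library among tissue replicates 1, 2 and 3, day 3 replicates 1, 2 and 3 and day 5 replicate 1 (limma adjusted p 0.0513 to 0.119), and also with a pseudocount of 5, no filter and edgeR (adjusted p 0.0517 to 0.0628). The day 5 call of Tgfbr3l was lost without any single library among tissue replicates 2 and 3 and day 5 replicates 1 and 2 (limma adjusted p 0.0593 to 0.0721). At day 7 it was not called (0.45 ± 0.22) but passed without day 7 replicate 3 (limma adjusted p = 0.01004), and also with DESeq2 (adjusted p = 0.04997).

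Among the SMADs, Smad3 was the only member with a large rise. Smad3 read 149, 156 and 138 CPM in the tissue and 393, 419 and 365 CPM at day 3. Smad3 then read 407, 428 and 352 CPM at day 5 and 362, 385 and 298 CPM at day 7. The culture libraries of Smad3, a mediator of TGF-beta and activin, lay between 298 and 428 CPM and its tissue libraries between 138 and 156 CPM, with log2 fold changes of 1.41 ± 0.11 at day 3, 1.41 ± 0.11 at day 5 and 1.23 ± 0.11 at day 7 (limma adjusted p 2.50e-07 to 7.76e-07). Smad2 read 96.3, 104 and 93.7 CPM in the tissue and 86.1, 96.0 and 81.6 CPM at day 3. Smad2 then read 98.1, 100.2 and 122.1 CPM at day 5 and 78.1, 87.7 and 89.6 CPM at day 7. Smad2, which shares the upstream receptors of Smad3, was not called on any day, with log2 fold changes of -0.16 ± 0.11 at day 3, 0.12 ± 0.11 at day 5 and -0.20 ± 0.11 at day 7 (limma adjusted p 0.115 to 0.360).

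The BMP-regulated SMADs had small differences. Smad1 read 62.4, 73.4 and 71.0 CPM in the tissue and 69.8, 68.6 and 64.1 CPM at day 3. Smad1 then read 75.4, 81.3 and 81.4 CPM at day 5 and 80.9, 78.9 and 83.5 CPM at day 7. Smad1 was not called at day 3 (-0.03 ± 0.09) or day 5 (0.20 ± 0.09) and rose slightly at day 7 (log2 fold change 0.23 ± 0.09, limma adjusted p = 0.0359). That call was lost without any single library among tissue replicates 1 and 3 and day 7 replicates 1, 2 and 3 (limma adjusted p 0.0529 to 0.179). Smad5 read 101, 110.3 and 94.0 CPM in the tissue and 76.3, 94.1 and 71.3 CPM at day 3. Smad5 then read 102, 82.7 and 90.5 CPM at day 5 and 67.4, 87.7 and 87.8 CPM at day 7. Smad5 fell at day 3 (log2 fold change -0.34 ± 0.13, limma adjusted p = 0.0453) and day 7 (log2 fold change -0.33 ± 0.13, limma adjusted p = 0.0457) and was not called at day 5 (-0.15 ± 0.13). The day 3 call of Smad5 was lost without any single library among tissue replicates 1, 2 and 3 and day 3 replicates 1 and 3 (limma adjusted p 0.0541 to 0.154), and also with no filter (adjusted p = 0.0601). The day 7 call of Smad5 was lost without any single library among tissue replicates 1, 2 and 3, day 3 replicate 1 and day 7 replicate 1 (limma adjusted p 0.0527 to 0.204), and also with no filter, TMM scaling, edgeR and DESeq2 (adjusted p 0.0605 to 0.1001). Smad9 read 0, 0.0459 and 0.0987 CPM in the tissue and 0.189, 0.184 and 0.317 CPM at day 3. Smad9 then read 0.521, 0.403 and 0.159 CPM at day 5 and 0.0574, 0.477 and 0.254 CPM at day 7. Smad9 reached 0.521 CPM at most in the baseline and was not tested there.

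Smad4 read 155, 172 and 148 CPM in the tissue and 124, 133 and 101 CPM at day 3. Smad4 then read 146, 126 and 126 CPM at day 5 and 104, 126 and 114 CPM at day 7. Smad4, the shared partner of both branches, fell at day 3 (log2 fold change -0.41 ± 0.12, limma adjusted p = 0.00875) and day 7 (log2 fold change -0.46 ± 0.12, limma adjusted p = 0.00375) and was not called at day 5 (-0.25 ± 0.12). The day 5 difference passed without any single library among day 3 replicate 3 and day 5 replicate 1 (limma adjusted p 0.0395 to 0.0464). Both inhibitory SMADs were lower in culture. Smad6 read 26.1, 25.6 and 26.7 CPM in the tissue and 7.51, 7.11 and 10.6 CPM at day 3. Smad6 then read 8.11, 11.5 and 5.40 CPM at day 5 and 11.6, 11.4 and 9.79 CPM at day 7. Smad6, which mainly restrains BMP signals and is itself induced by them, fell at each day with no overlap with tissue, by log2 fold changes of -1.55 ± 0.21 at day 3, -1.59 ± 0.21 at day 5 and -1.19 ± 0.21 at day 7 (limma adjusted p 2.85e-05 to 3.07e-04). Smad7 read 130.1, 122.8 and 121.7 CPM in the tissue and 102, 80.9 and 112 CPM at day 3. Smad7 then read 76.0, 91.6 and 57.2 CPM at day 5 and 109, 90.7 and 75.5 CPM at day 7. Smad7, which restrains TGF-beta and BMP receptors, fell at day 5 (log2 fold change -0.75 ± 0.17, limma adjusted p = 0.00189) and day 7 (log2 fold change -0.46 ± 0.17, limma adjusted p = 0.0334). The day 7 call of Smad7 was lost without any single library among tissue replicates 1, 2 and 3 and day 7 replicates 2 and 3 (limma adjusted p 0.0651 to 0.147), and also with no filter (adjusted p = 0.0525). At day 3 Smad7 was not called (-0.36 ± 0.17), and it passed without day 5 replicate 3 (limma adjusted p = 0.0417), and also with DESeq2 and only the 2 groups compared (adjusted p 0.0233 to 0.0406).

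The 4 ID genes encode helix-loop-helix proteins that block DNA binding of their partners, and Id1, Id2 and Id4 fell in culture while Id3 rose. Id1 read 39.1, 35.4 and 43.2 CPM in the tissue and 12.3, 10.8 and 17.6 CPM at day 3. Id1 then read 13.1, 11.9 and 11.7 CPM at day 5 and 17.7, 15.9 and 13.3 CPM at day 7. Every culture library of Id1 was below every tissue library, with log2 fold changes of -1.49 ± 0.17 at day 3, -1.60 ± 0.17 at day 5 and -1.28 ± 0.17 at day 7 (limma adjusted p 3.49e-06 to 2.31e-05). Id2 read 37.0, 38.4 and 41.6 CPM in the tissue and 4.19, 5.93 and 4.92 CPM at day 3. Id2 then read 8.52, 6.25 and 9.79 CPM at day 5 and 10.3, 18.7 and 14.6 CPM at day 7. Id2 was lowest at day 3 and also stayed below all tissue libraries, with -2.74 ± 0.21 at day 3, -2.14 ± 0.21 at day 5 and -1.40 ± 0.21 at day 7 (limma adjusted p 1.83e-07 to 5.93e-05). Id4 read 15.6, 14.2 and 13.3 CPM in the tissue and 2.57, 3.32 and 3.97 CPM at day 3. Id4 then read 3.94, 3.95 and 3.49 CPM at day 5 and 6.25, 6.81 and 4.41 CPM at day 7. Id4, which marks spermatogonial stem cells, was below tissue in every culture library too, with -1.85 ± 0.18 at day 3, -1.68 ± 0.18 at day 5 and -1.18 ± 0.18 at day 7 (limma adjusted p 1.56e-06 to 6.76e-05). Id3 read 30.0, 23.8 and 26.7 CPM in the tissue and 42.8, 38.3 and 68.0 CPM at day 3. Id3 then read 39.5, 46.7 and 48.3 CPM at day 5 and 70.5, 59.0 and 55.9 CPM at day 7. Every Id3 culture library was above every tissue library, with log2 fold changes of 0.83 ± 0.18 at day 3, 0.72 ± 0.18 at day 5 and 1.17 ± 0.18 at day 7 (limma adjusted p 9.30e-05 to 0.00396).

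**Figure D4:**
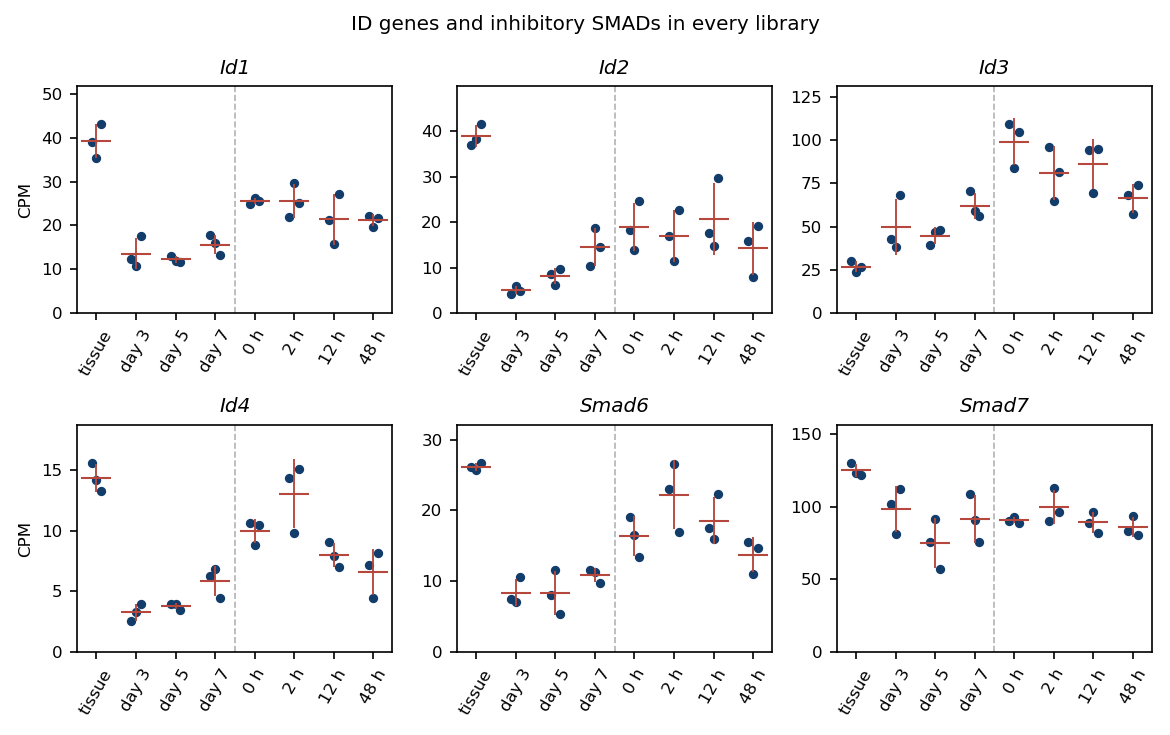
CPM of the 4 ID genes, Smad6 and Smad7 in every library (points; linear y axis) of the 8 groups, with the mean and SD of 3 libraries in red and a dashed line between the experiments. Id1, Id2, Id4 and Smad6 lie below tissue in all baseline cultures and Id3 above it, with Id3 at 23.8 to 30.0 CPM in tissue and 38.3 CPM or more in culture.

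The promoters of the 4 ID genes, which moved apart in culture, are printed with that of Smad7, the printed promoter that holds a GC-rich SMAD element. Each is the 250 bases before the gene start, 5′ to 3′ in the direction of transcription, from RefSeq on build GRCr8, and capitals mark matches of the motifs searched. The coordinates are Id1 at chr3:161671314-161671563, plus strand, Id2 at chr6:47470996-47471245, minus strand, Id3 at chr5:153656041-153656290, plus strand, Id4 at chr17:16598294-16598543, minus strand and Smad7 at chr18:71263258-71263507, plus strand.
Id1: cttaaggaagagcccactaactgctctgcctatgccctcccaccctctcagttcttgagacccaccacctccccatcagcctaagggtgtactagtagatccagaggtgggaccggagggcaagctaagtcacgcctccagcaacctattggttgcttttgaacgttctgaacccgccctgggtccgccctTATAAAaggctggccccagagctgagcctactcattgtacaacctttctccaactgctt
Id2: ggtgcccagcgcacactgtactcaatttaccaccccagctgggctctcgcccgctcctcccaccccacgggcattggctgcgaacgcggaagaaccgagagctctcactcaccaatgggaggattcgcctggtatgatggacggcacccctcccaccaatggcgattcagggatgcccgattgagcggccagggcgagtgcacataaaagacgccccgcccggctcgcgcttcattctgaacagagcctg
Id3: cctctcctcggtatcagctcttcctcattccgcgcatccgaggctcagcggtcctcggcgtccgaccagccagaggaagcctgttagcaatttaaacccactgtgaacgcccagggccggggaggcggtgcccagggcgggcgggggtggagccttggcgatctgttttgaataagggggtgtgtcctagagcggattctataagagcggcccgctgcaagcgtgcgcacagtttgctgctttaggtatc
Id4: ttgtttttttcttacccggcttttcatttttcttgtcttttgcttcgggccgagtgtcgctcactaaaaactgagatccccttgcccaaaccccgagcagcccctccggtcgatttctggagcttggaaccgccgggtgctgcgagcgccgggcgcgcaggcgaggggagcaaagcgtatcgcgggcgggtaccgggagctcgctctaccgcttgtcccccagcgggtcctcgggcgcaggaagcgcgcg
Smad7: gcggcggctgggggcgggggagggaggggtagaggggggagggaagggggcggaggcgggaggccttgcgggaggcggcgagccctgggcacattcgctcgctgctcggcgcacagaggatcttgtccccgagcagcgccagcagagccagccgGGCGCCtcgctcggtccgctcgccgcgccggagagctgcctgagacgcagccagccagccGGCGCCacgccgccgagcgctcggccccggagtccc

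The motifs, searched on both strands, were GGCGCC, bound by BMP-activated SMADs, GTCTAGAC and the shorter CAGAC, bound by SMAD3 and SMAD4, TGACGTCA, the cyclic AMP response element, and the TATA box TATAAA. Promoters of 48 members were matched by symbol and compared with those of 18999 protein-coding genes. GGCGCC was in 11 of the 48 (22.9%) and in 11.5% of all promoters, and Smad7 held it at 96 to 91 and at 36 to 31 bases before its start. CAGAC was in 12 members (25%) and in 42.3% of all promoters, and GTCTAGAC in 0 members and 0.153%. TGACGTCA was in 1 member (2.08%), Ltbp1, and in 2.03% of all promoters, and TATAAA in 5 (10.4%), among them Id1 at 59 to 54 bases before its start, and in 12.3% of all. None of the differences in these shares was tested, and the GC content of member promoters was not compared with that of all promoters. None of the 5 motifs was in the printed windows of Id2, Id3 and Id4, which says only that these letters are absent there.

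Of the members in none of the listed classes, Bmp1 and Tgfbrap1 rose and Bmp2k was not called. Bmp1 rose at each day (log2 fold changes 0.59 ± 0.11 at day 3, 0.39 ± 0.11 at day 5 and 0.73 ± 0.11 at day 7 (limma adjusted p 9.31e-05 to 0.00938)), in a range of 143 to 261 CPM, and Tgfbrap1 rose at each day (log2 fold changes 0.42 ± 0.11 at day 3, 0.51 ± 0.11 at day 5 and 0.48 ± 0.11 at day 7 (limma adjusted p 0.00103 to 0.00420)), in a range of 30.9 to 51.9 CPM. Bmp2k lay between 23.2 and 36.3 CPM and was not called.

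Further genes of the pathways were followed in 7 lists of 109 symbols, of which 104 were in the table. Their counts stand beside those of all tested genes. Of these, 29.1% rose and 26.8% fell at day 3, and 29.6% rose and 30.3% fell at day 5. At day 7, 28.5% rose and 31.4% fell. Of 17 tested TGF-beta target genes, 16 rose and 0 fell at day 3, 14 rose and 1 fell at day 5, and 13 rose and 2 fell at day 7. At day 3 they were led by the collagen cross-linking enzyme Lox (log2 fold change 3.97 ± 0.25, limma adjusted p = 3.34e-08), the cell cycle inhibitor Cdkn2b (log2 fold change 3.29 ± 0.28, limma adjusted p = 6.21e-07), fibronectin, Fn1 (log2 fold change 2.59 ± 0.25, limma adjusted p = 1.88e-06), and periostin, Postn (log2 fold change 2.43 ± 0.46, limma adjusted p = 5.75e-04). The median of the list was 0.97 at day 3, beside 0.02 over all tested genes. The list also holds Acta2 and Tagln, which are myoid markers. The genes of this list that fell, named after their values were seen, were above tissue first. Tgfbi was above it at day 3 (log2 fold change 0.61 ± 0.14, limma adjusted p = 0.00237) and below it at day 5 (log2 fold change -0.80 ± 0.14, limma adjusted p = 2.74e-04) and day 7 (log2 fold change -0.72 ± 0.14, limma adjusted p = 6.19e-04), and Adam12 was above it at day 3 (log2 fold change 0.82 ± 0.21, limma adjusted p = 0.00431) and below it at day 7 (log2 fold change -0.64 ± 0.21, limma adjusted p = 0.0167).

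The BMP target genes did not move one way. Of 9 tested, 3 rose and 3 fell at day 3, 2 rose and 4 fell at day 5, and 3 rose and 3 fell at day 7. The day 3 counts were near the shares of all tested genes, 29.1% rising and 26.8% falling. At day 3 Runx2, an osteoblast transcription factor (log2 fold change 1.39 ± 0.16, limma adjusted p = 6.75e-06), and Tbx2, a T-box factor (log2 fold change 1.25 ± 0.29, limma adjusted p = 0.00213), rose, while Hey2, also a Notch target (log2 fold change -1.08 ± 0.18, limma adjusted p = 1.97e-04), and Alpl, alkaline phosphatase (log2 fold change -0.91 ± 0.18, limma adjusted p = 7.58e-04), fell. The median of the list at day 3 was 0.38, beside 0.02 over all tested genes.

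Genes listed for latent TGF-beta activation, not all of which release TGF-beta, rose for 9 of 13 tested at day 3, 7 at day 5 and 8 at day 7. Of these, 0 fell. The integrin subunit Itgav, which binds latent TGF-beta, led them (log2 fold change 2.28 ± 0.14, limma adjusted p = 2.93e-08 at day 3). Itgb1 (0.90 ± 0.16), Thbs1 (0.90 ± 0.18) and the fibrillin Fbn1 (0.80 ± 0.24), which anchors LTBPs, also rose at day 3, with limma adjusted p 3.04e-04, 7.03e-04 and 0.0128.

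Co-receptors and membrane modulators rose for 5 of 8 tested at day 3, with 0 falling, for 4 at day 5, with 1 falling, and for 4 at day 7, with 0 falling. They were led by Lrrc32, which holds latent TGF-beta at the cell surface (log2 fold change 2.68 ± 0.17, limma adjusted p = 4.51e-08), and by Eng, the co-receptor endoglin, also an endothelial gene (log2 fold change 2.07 ± 0.16, limma adjusted p = 2.52e-07). Of 11 tested extracellular antagonists, 4 rose and 3 fell at day 3, and 4 rose and 4 fell at days 5 and 7. At day 3 this was near the 29.1% rising and 26.8% falling among all tested genes. Crim1, which binds BMPs at the cell surface, rose at day 3 (log2 fold change 1.61 ± 0.11, limma adjusted p = 1.14e-07), as did Fstl1 (log2 fold change 1.00 ± 0.19, limma adjusted p = 4.75e-04), while Fstl3, which binds activin (log2 fold change -2.92 ± 0.23, limma adjusted p = 3.01e-07), and Wfikkn2 (log2 fold change -1.63 ± 0.31, limma adjusted p = 6.24e-04) fell.

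Intracellular SMAD regulators rose for 8 of 19 at day 3, with 3 falling, for 7 at day 5, with 1 falling, and for 6 at day 7, with 3 falling. Smurf1, a ubiquitin ligase for SMADs and receptors (log2 fold change 1.06 ± 0.11, limma adjusted p = 2.79e-06), and Zfyve16, an endosomal protein (log2 fold change 0.98 ± 0.14, limma adjusted p = 4.66e-05) rose most at day 3. Of 6 tested genes of activin, inhibin and AMH signalling, 4 rose and 1 fell at day 3, and 3 rose and 2 fell at day 5 and day 7. At day 3 the AMH receptor Amhr2 (log2 fold change 2.34 ± 0.18, limma adjusted p = 2.17e-07), the activin subunit Inhba (log2 fold change 2.02 ± 0.12, limma adjusted p = 1.87e-08), anti-Müllerian hormone, Amh (log2 fold change 1.24 ± 0.21, limma adjusted p = 2.36e-04), and Inhbb, another activin subunit (log2 fold change 1.09 ± 0.12, limma adjusted p = 6.62e-06) rose. The gene that fell, named after its value was seen, was the inhibin alpha subunit Inha (log2 fold change -0.47 ± 0.12, limma adjusted p = 0.00466).

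Between day 3 and day 7 of culture few members were called, and all of them rose. Of 44 tested members 4 rose (9.09%) and 0 fell, beside 1.36% rising and 2.44% falling among all genes, or 177 and 318 genes, which became 243 and 245 after TMM scaling. Ltbp1 rose from 42.0, 68.1 and 52.4 to 156, 201 and 293 CPM (log2 fold change 1.96 ± 0.33, limma adjusted p = 0.00649). Ltbp4 rose from 1033, 1147 and 1095 to 1643, 1801 and 2116 CPM (log2 fold change 0.76 ± 0.11, limma adjusted p = 0.00281). Id2 rose from 4.19, 5.93 and 4.92 to 10.3, 18.7 and 14.6 CPM (log2 fold change 1.34 ± 0.21, limma adjusted p = 0.00400), which was still below the tissue, and Bmpr1b from 1.40, 2.10 and 1.37 to 3.38, 5.20 and 4.52 CPM (log2 fold change 1.03 ± 0.19, limma adjusted p = 0.00883). For all 4 genes every day 7 library was above every day 3 library. Without day 5 replicate 3, which entered only the shared estimate of the spread, 8 members were called. Added were Id4, Ltbp2 and Ltbp3, which were higher at day 7, and Bmp7, which was lower. Id4 and Ltbp3 also passed with TMM scaling, edgeR and DESeq2 (adjusted p 1.19e-04 to 0.0329). Of the pathway lists, 3 of 17 TGF-beta targets rose and 2 fell between these days, led by Adam12 (log2 fold change -1.46 ± 0.21, limma adjusted p = 0.00281) and Tgfbi (log2 fold change -1.33 ± 0.14, limma adjusted p = 3.39e-04), which fell, and Col1a1 (log2 fold change 1.18 ± 0.18, limma adjusted p = 0.00405) and Col3a1 (log2 fold change 0.89 ± 0.13, limma adjusted p = 0.00310), which rose. Genes listed for latent TGF-beta activation rose for 3 of 13 tested and fell for 1. Of 6 genes of activin, inhibin and AMH signalling 0 rose and 2 fell. Of 11 antagonists 1 rose and 1 fell, and of 9 BMP targets 1 rose and 0 fell. No co-receptor or SMAD regulator of the lists was called. Myoid markers rose for 4 of 10 genes over the same interval, and their part in these changes was not tested.

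In the induction experiment few members were called after LH and FSH. Of 43 tested members, 1 rose (2.33%) and 0 fell at 2 h against 0 h, 0 rose and 0 fell at 12 h, and 3 rose and 3 fell at 48 h (6.98% each way). Among all 12450 genes, 0.329% rose and 0.289% fell at 2 h, 0% rose and 0% fell at 12 h, and 2.22% rose and 2.13% fell at 48 h, or 276 and 265 genes, which became 325 and 174 after TMM scaling. The fits held litter as a block, and values are given for litters 1, 2 and 3 in this order. At 12 h, limma called 0 genes of any kind, although 2 members and 1000 genes had an unadjusted p under 0.05. On recovered reads edgeR called 0 genes at 12 h, and DESeq2 called 20 genes as rising and 1 as falling, with 0 members among them.

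At 48 h, Id3 fell in all 3 litters and was the member whose call held under each alternative that kept litter as a block. Id3 read 109, 83.7 and 104 CPM at 0 h and 96.1, 65.1 and 81.4 CPM at 2 h. Id3 then read 94.1, 69.5 and 94.6 CPM at 12 h and 68.2, 57.0 and 73.8 CPM at 48 h. It was lower than at 0 h in each litter at every later time, with log2 fold changes of -0.30 ± 0.07 at 2 h, -0.21 ± 0.07 at 12 h and -0.57 ± 0.07 at 48 h (limma adjusted p 0.00246 to 0.594), and litter 2 was the lowest at all 4 times. From 12 h to 48 h it fell as well (log2 fold change -0.36 ± 0.07, limma adjusted p = 0.0390), as the sole called member beside 0.434% of genes rising and 0.281% falling. That call of Id3 was lost without any single library among litters 1, 2 and 3 at 0 h, litter 2 at 2 h, litters 1, 2 and 3 at 12 h and litters 1, 2 and 3 at 48 h (limma adjusted p 0.0588 to 0.207), and also with no filter, only the 2 groups compared and no litter block (adjusted p 0.0829 to 0.728).

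Bmp3 and Nog also fell at 48 h. Bmp3 read 69.4, 72.6 and 63.2 CPM at 0 h and 60.9, 74.3 and 68.0 CPM at 2 h. Bmp3 then read 61.9, 70.8 and 64.5 CPM at 12 h and 37.6, 46.7 and 55.1 CPM at 48 h. All 48 h libraries of Bmp3 were below all 0 h libraries (log2 fold change -0.56 ± 0.10, limma adjusted p = 0.0145). That call of Bmp3 was lost without any single library among litters 1 and 2 at 0 h and litter 1 at 48 h (limma adjusted p 0.0516 to 0.0645), and also with only the 2 groups compared and no litter block (adjusted p 0.0711 to 0.0931). Nog read 5.75, 7.28 and 6.98 CPM at 0 h and 5.94, 10.5 and 8.93 CPM at 2 h. Nog then read 6.21, 7.79 and 6.68 CPM at 12 h and 3.64, 5.41 and 4.67 CPM at 48 h. The 48 h libraries of Nog were all below the 0 h libraries (log2 fold change -0.47 ± 0.11, limma adjusted p = 0.0466). That call of Nog was lost without any single library among litters 1, 2 and 3 at 0 h, litter 2 at 2 h, litters 1 and 2 at 12 h and litters 1, 2 and 3 at 48 h (limma adjusted p 0.0559 to 0.171), and also with a pseudocount of 5, no filter, TMM scaling, edgeR, DESeq2, only the 2 groups compared and no litter block (adjusted p 0.0546 to 0.336).

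Bmpr1b, Tgfbr3 and Gdf11 rose at 48 h. Bmpr1b read 2.30, 2.04 and 2.88 CPM at 0 h and 3.82, 1.80 and 4.40 CPM at 2 h. Bmpr1b then read 3.41, 3.29 and 3.78 CPM at 12 h and 8.79, 5.35 and 4.91 CPM at 48 h. All 48 h libraries were above all 0 h libraries (log2 fold change 1.08 ± 0.21, limma adjusted p = 0.0200), with litter 1 the highest. That call of Bmpr1b was lost without any single library among litters 1, 2 and 3 at 0 h and litters 1 and 2 at 48 h (limma adjusted p 0.0541 to 0.0825), and also with no filter and no litter block (adjusted p 0.0511 to 0.103). Tgfbr3 read 81.0, 111 and 83.2 CPM at 0 h and 52.1, 92.2 and 101 CPM at 2 h. Tgfbr3 then read 74.9, 109 and 125 CPM at 12 h and 216, 164 and 179 CPM at 48 h. The co-receptor was higher at 48 h than at 0 h in all 3 litters, without overlap (log2 fold change 1.02 ± 0.21, limma adjusted p = 0.0255). That call of Tgfbr3 was lost without any single library among litters 1, 2 and 3 at 0 h and litter 1 at 48 h (limma adjusted p 0.0529 to 0.124), and also with no filter and no litter block (adjusted p 0.0592 to 0.113). Gdf11 read 19.7, 21.6 and 20.6 CPM at 0 h and 13.9, 18.0 and 16.4 CPM at 2 h. Gdf11 then read 19.7, 20.8 and 24.1 CPM at 12 h and 28.3, 27.8 and 28.8 CPM at 48 h. It was at its highest in all 3 litters at 48 h (log2 fold change 0.44 ± 0.09, limma adjusted p = 0.0258). That call of Gdf11 was lost without any single library among litters 1, 2 and 3 at 0 h and litters 1 and 3 at 48 h (limma adjusted p 0.0529 to 0.119), and also with no litter block (adjusted p = 0.117). None of the 6 calls at 48 h held without the litter block, where limma adjusted p ran from 0.0931 to 0.336. At 48 h, 2 of 9 tested macrophage markers and 2 of 6 Leydig cell markers rose. The macrophage sums were 41.7 to 217 CPM at 0 h and 61.4 to 449.8 CPM at 48 h. These sums were not compared within litters. The lowest Csf1r library read 3.16 CPM at 0 h and 3.03 CPM at 48 h, and the highest 18.4 and 37.0 CPM. The Leydig cell sums were 226 to 284 CPM at 0 h and 269.5 to 387 CPM at 48 h. Nr5a1 made up most of them, at means of 184 and 186 CPM. Mean Cyp17a1 went from 0.898 to 25.4 CPM and mean Cyp11a1 from 7.23 to 23.7 CPM. Insl3 was at 0 in every induction library. The part of these markers in the changes of the members was not tested.

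At 2 h, Tgfbr1 rose. Tgfbr1 read 105, 87.0 and 94.8 CPM at 0 h and 128, 109 and 127 CPM at 2 h. Tgfbr1 then read 115, 99.0 and 99.0 CPM at 12 h and 97.2, 90.1 and 106 CPM at 48 h. It was higher at 2 h than at 0 h in all 3 litters (log2 fold change 0.34 ± 0.07, limma adjusted p = 0.0491) and overlapped 0 h again at 48 h. That call of Tgfbr1 was lost without any single library among litters 1, 2 and 3 at 0 h, litters 1, 2 and 3 at 2 h, litters 1 and 2 at 12 h and litters 2 and 3 at 48 h (limma adjusted p 0.0682 to 0.196), and also with no filter, TMM scaling, edgeR and no litter block (adjusted p 0.0518 to 0.232). Without litter 1 at 48 h, 3 members were called at 2 h, with Tgfb1 and Id3 added (limma adjusted p = 0.0454 and 0.0466). The 2 h difference of Id3 also passed with DESeq2 and only the 2 groups compared (adjusted p 0.0133 to 0.0475). With only the 2 groups compared, Tgfb1 and Ltbp1 passed too (limma adjusted p = 0.0325 and 0.0480), Ltbp1 being lower at 2 h. Tgfb1 read 209, 185 and 170.1 CPM at 0 h and 246, 247 and 219.6 CPM at 2 h. Tgfb1 then read 226, 206 and 177 CPM at 12 h and 167, 241 and 191 CPM at 48 h. Tgfb1 was higher at 2 h than at 0 h in all 3 litters without overlap, at log2 fold changes of 0.34 ± 0.11 at 2 h, 0.11 ± 0.11 at 12 h and 0.08 ± 0.11 at 48 h (limma adjusted p 0.139 to 0.766).

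Between 2 h and 12 h, 2 members rose and 1 fell, beside 1.17% and 1.78% of all genes, or 146 and 222 genes, which became 165 and 101 after TMM scaling. Gdf11 (log2 fold change 0.40 ± 0.09, limma adjusted p = 0.0441) and Ltbp1 (log2 fold change 0.42 ± 0.09, limma adjusted p = 0.0445) rose and Id4 fell (log2 fold change -0.63 ± 0.15, limma adjusted p = 0.0482). Ltbp1 read 229.9, 147 and 353 CPM at 0 h and 205, 120.9 and 274 CPM at 2 h. Ltbp1 then read 271, 189 and 319 CPM at 12 h and 221, 159 and 268 CPM at 48 h. It was higher at 12 h than at 2 h in each litter and always lowest in litter 2. Id4 read 10.6, 8.78 and 10.5 CPM at 0 h and 14.3, 9.79 and 15.0 CPM at 2 h. Id4 then read 9.02, 7.91 and 7.04 CPM at 12 h and 7.15, 4.46 and 8.17 CPM at 48 h. Id4 was lower at 12 h than at 2 h in each litter. The call of Gdf11 was lost without any single library among litters 1, 2 and 3 at 0 h, litters 1 and 3 at 2 h, litters 1, 2 and 3 at 12 h and litters 2 and 3 at 48 h (limma adjusted p 0.0525 to 0.166), and also with no filter, only the 2 groups compared and no litter block (adjusted p 0.0673 to 0.163). Ltbp1 lost its call without any single library among litters 1 and 2 at 0 h, litters 1, 2 and 3 at 2 h, litters 1, 2 and 3 at 12 h and litter 3 at 48 h (limma adjusted p 0.0557 to 0.143), and also with no filter, only the 2 groups compared and no litter block (adjusted p 0.0777 to 0.653). Id4 lost its call without any single library among litters 1, 2 and 3 at 0 h, litters 1, 2 and 3 at 2 h, litters 1, 2 and 3 at 12 h and litters 2 and 3 at 48 h (limma adjusted p 0.0506 to 0.173), and also with a pseudocount of 0.25, no filter, TMM scaling, edgeR, only the 2 groups compared and no litter block (adjusted p 0.0513 to 0.225).

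**Figure D5:**
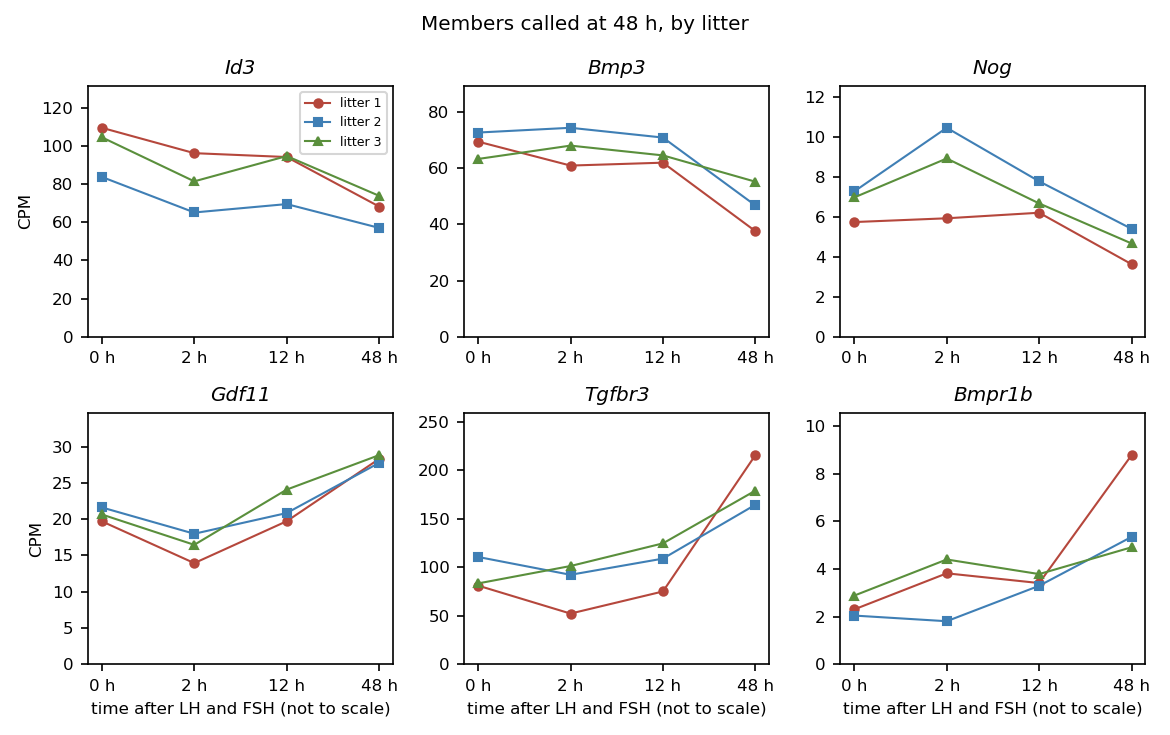
CPM at 0, 2, 12 and 48 h after LH and FSH (x axis not to scale; linear y axis) for the 6 members called at 48 h, with 1 line per litter. Id3 and Bmp3 end lower at 48 h and Bmpr1b and Tgfbr3 higher in all 3 litters.

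The other ligands of the panel were not called at any time after the hormones. Tgfb2 read 176, 117 and 133 CPM at 0 h and 178, 125 and 179.7 CPM at 2 h. Tgfb2 then read 155, 130.4 and 123.4 CPM at 12 h and 133, 133 and 136 CPM at 48 h. The times overlapped for Tgfb2, with log2 fold changes against 0 h of 0.18 ± 0.12 at 2 h, -0.05 ± 0.12 at 12 h and -0.06 ± 0.12 at 48 h (limma adjusted p 0.438 to 0.911). Tgfb3 read 66.9, 42.0 and 65.1 CPM at 0 h and 65.2, 36.3 and 58.0 CPM at 2 h. Tgfb3 then read 58.3, 50.3 and 41.7 CPM at 12 h and 50.7, 40.9 and 56.5 CPM at 48 h. They overlapped for Tgfb3 as well, with -0.14 ± 0.15 at 2 h, -0.19 ± 0.15 at 12 h and -0.21 ± 0.15 at 48 h (limma adjusted p 0.429 to 0.707).

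Bmp4 read 22.8, 13.2 and 19.4 CPM at 0 h and 25.3, 14.5 and 24.2 CPM at 2 h. Bmp4 then read 27.4, 12.7 and 17.4 CPM at 12 h and 21.1, 17.5 and 16.5 CPM at 48 h. It was highest in litter 1 at all 4 times, with log2 fold changes against 0 h of 0.19 ± 0.15 at 2 h, 0.02 ± 0.15 at 12 h and 0.02 ± 0.15 at 48 h (limma adjusted p 0.533 to 0.974). Bmp7 read 6.85, 16.4 and 7.10 CPM at 0 h and 5.09, 16.3 and 6.00 CPM at 2 h. Bmp7 then read 7.41, 13.5 and 6.21 CPM at 12 h and 9.39, 13.5 and 7.75 CPM at 48 h. Bmp7 was highest in litter 2 at all 4 times, with -0.19 ± 0.16 at 2 h, -0.11 ± 0.16 at 12 h and 0.09 ± 0.16 at 48 h (limma adjusted p 0.563 to 0.839).

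The antagonists and receptors described next were not called at any time after the hormones. Chrd read 30.8, 28.8 and 31.9 CPM at 0 h and 33.1, 23.9 and 33.0 CPM at 2 h. Chrd then read 32.9, 25.2 and 35.0 CPM at 12 h and 30.1, 25.9 and 30.1 CPM at 48 h. Chrd was lowest in litter 2 at all times and changed by -0.09 ± 0.08 at 48 h. Grem1 read 0.239, 0.0833 and 0.237 CPM at 0 h and 0.141, 0.0974 and 0.137 CPM at 2 h. Grem1 then read 0.0921, 0.190 and 0.0591 CPM at 12 h and 0.606, 0 and 0.178 CPM at 48 h. Grem1 stayed under 1 CPM and was not tested.

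Tgfbr2 read 237, 194 and 200.4 CPM at 0 h and 189.7, 179 and 215 CPM at 2 h. Tgfbr2 then read 222, 182 and 246 CPM at 12 h and 217, 182 and 228 CPM at 48 h. Tgfbr2 was lowest in litter 2 at all 4 times and changed by -0.01 ± 0.08 at 48 h. Bmpr1a read 160.2, 181 and 161 CPM at 0 h and 143, 190.5 and 162 CPM at 2 h. Bmpr1a then read 169, 199 and 188 CPM at 12 h and 212, 203 and 193 CPM at 48 h. Bmpr1a was higher at 48 h than at 0 h in all 3 litters but missed the threshold (log2 fold change 0.27 ± 0.08, limma adjusted p = 0.0661). It passed without litter 2 at 48 h (limma adjusted p = 0.0478), and also with DESeq2 (adjusted p = 0.0130). Bmpr2 read 95.8, 94.8 and 107 CPM at 0 h and 87.0, 90.9 and 125 CPM at 2 h. Bmpr2 then read 110.4, 119.6 and 115 CPM at 12 h and 118, 108 and 121.6 CPM at 48 h. Bmpr2 was not called, with a change at 48 h of 0.22 ± 0.09. Acvr1 read 70.5, 67.1 and 66.4 CPM at 0 h and 71.3, 77.3 and 75.9 CPM at 2 h. Acvr1 then read 66.6, 63.8 and 74.4 CPM at 12 h and 61.9, 69.5 and 70.7 CPM at 48 h. Acvr1 was not called either, with -0.02 ± 0.07.

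None of the SMADs was called after the hormones. Smad1 read 81.8, 83.4 and 89.2 CPM at 0 h and 84.6, 82.8 and 98.2 CPM at 2 h. Smad1 then read 78.0, 76.0 and 81.5 CPM at 12 h and 72.3, 73.2 and 78.5 CPM at 48 h. Smad1 was highest in litter 3 at all times and changed by -0.18 ± 0.05 at 48 h. Smad5 read 115, 115 and 105 CPM at 0 h and 108, 115 and 100.1 CPM at 2 h. Smad5 then read 112, 117 and 115 CPM at 12 h and 114, 116 and 114 CPM at 48 h. Smad5 was highest in litter 2 and changed by 0.04 ± 0.05. Smad2 read 69.4, 68.8 and 75.1 CPM at 0 h and 70.4, 69.9 and 76.5 CPM at 2 h. Smad2 then read 68.6, 66.5 and 72.8 CPM at 12 h and 65.4, 62.8 and 70.9 CPM at 48 h. Smad2 was highest in litter 3 and changed by -0.10 ± 0.05. Smad3 read 133, 165 and 127 CPM at 0 h and 121.4, 178 and 124 CPM at 2 h. Smad3 then read 141, 171 and 140.4 CPM at 12 h and 161, 173 and 131 CPM at 48 h. Smad3 was highest in litter 2 and changed by 0.13 ± 0.08.

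Smad4 read 148, 146 and 137 CPM at 0 h and 139, 144 and 144 CPM at 2 h. Smad4 then read 142, 139 and 139 CPM at 12 h and 142, 140.4 and 139 CPM at 48 h. Smad4 stayed within 137 to 148 CPM and changed by -0.03 ± 0.05 at 48 h. Smad9 read 9.92, 10.9 and 7.65 CPM at 0 h and 9.51, 11.3 and 6.73 CPM at 2 h. Smad9 then read 10.9, 9.50 and 13.4 CPM at 12 h and 9.94, 8.79 and 7.16 CPM at 48 h. The times overlapped for Smad9, which changed by -0.12 ± 0.18 at 48 h. Smad6 read 19.1, 16.5 and 13.4 CPM at 0 h and 23.04, 26.6 and 17.0 CPM at 2 h. Smad6 then read 17.4, 15.9 and 22.3 CPM at 12 h and 15.6, 10.99 and 14.7 CPM at 48 h. Smad6 was higher at 2 h than at 0 h in all 3 litters but missed the threshold (log2 fold change 0.41 ± 0.19, limma adjusted p = 0.275). Smad7 read 89.96, 92.9 and 89.0 CPM at 0 h and 89.8, 113 and 96.2 CPM at 2 h. Smad7 then read 88.8, 96.6 and 81.9 CPM at 12 h and 83.4, 93.8 and 80.5 CPM at 48 h. Smad7 was highest in litter 2 throughout and changed by -0.08 ± 0.06 at 48 h.

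Id1 read 25.004, 26.2 and 25.6 CPM at 0 h and 22.02, 29.7 and 25.2 CPM at 2 h. Id1 then read 21.3, 15.7 and 27.2 CPM at 12 h and 22.2, 19.7 and 21.7 CPM at 48 h. At 48 h Id1 was lower than at 0 h in all 3 litters and missed the threshold (log2 fold change -0.26 ± 0.16, limma adjusted p = 0.331). Id2 read 18.3, 13.9 and 24.6 CPM at 0 h and 17.0, 11.3 and 22.8 CPM at 2 h. Id2 then read 17.7, 14.8 and 29.8 CPM at 12 h and 15.8, 7.84 and 19.2 CPM at 48 h. Id2 was likewise lower at 48 h in all 3 litters and missed it (log2 fold change -0.44 ± 0.12, limma adjusted p = 0.0650). Id4, given above, was lower at 48 h in all 3 litters and missed it (log2 fold change -0.56 ± 0.15, limma adjusted p = 0.0588). It passed without any single library among litters 2 and 3 at 12 h (limma adjusted p 0.0261 to 0.0489), and also with DESeq2 (adjusted p = 0.0355). Bmp6 was also lower at 48 h in each litter and missed it (log2 fold change -0.58 ± 0.15, limma adjusted p = 0.0571). For Bmp6 it passed without any single library among litter 3 at 12 h and litter 2 at 48 h (limma adjusted p 0.0450 to 0.0464), and also with DESeq2 (adjusted p = 0.0112).

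Few genes of the wider pathway lists were called after the hormones. At 48 h against 0 h, 2 of 5 tested genes of activin, inhibin and AMH signalling rose, the inhibin subunits Inha (log2 fold change 0.56 ± 0.12, limma adjusted p = 0.0318) and Inhbb (log2 fold change 0.48 ± 0.12, limma adjusted p = 0.0422), and 1 of 11 extracellular antagonists rose, the activin-binding follistatin Fst (log2 fold change 0.58 ± 0.14, limma adjusted p = 0.0433). Furin, a protease that matures TGF-beta, fell (log2 fold change -0.24 ± 0.06, limma adjusted p = 0.0403) as the only called gene of 12 in its list. None of 17 TGF-beta targets, 8 BMP targets, 8 co-receptors or 18 SMAD regulators was called at 48 h. Between 2 h and 12 h Tsku, a secreted antagonist, fell (log2 fold change -0.52 ± 0.12, limma adjusted p = 0.0458), and between 12 h and 48 h the cell cycle inhibitor Cdkn1a rose (log2 fold change 0.72 ± 0.12, limma adjusted p = 0.0336), each as the only called gene of the 7 lists.

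The 12 tested members not yet described, Ltbp2, Ltbp3, Ltbp4, Chrdl1, Chrdl2, Acvr1b, Acvrl1, Acvr2a, Acvr2b, Bmp1, Bmp2k and Tgfbrap1, were not called at any time. Their log2 fold changes at 48 h lay between -0.17 and 0.21, with Bmp2k the highest and Acvrl1 the lowest.

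The shares of members with the same litter always highest, or always lowest, were near those of all genes, but the shares for litter 2 lay further apart. The same litter was the highest at all 4 times for 12 of 43 members (27.9%; 22.6% of all genes) and the lowest for 11 (25.6%; 20.8% of all genes). Litter 2 was always the highest for 5 members (11.6%; 17.9% of all genes) and always the lowest for 9 (20.9%; 5.98% of all genes), and neither difference in shares was tested. It was always the highest for Bmp7, Nog, Smad3, Smad5 and Smad7 and always the lowest for Ltbp1, Ltbp3, Ltbp4, Chrd, Chrdl1, Tgfbr2, Smad2, Id2 and Id3. For Id3 at 0 h, litter 2 read 83.7 CPM beside 109 and 104 CPM in litters 1 and 3.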

How the data were processed

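The authors deposited CPM values, each gene's reads scaled to its library total, for 21425 genes in 24 libraries of 8 groups. The submitters' processing notes name STAR and the rat build mRatBN7.2, and the counting step is not given in the sources used here. Per the labels' protocols the libraries were nondirectional and selected by poly-T beads. All values were whole multiples of 1 read to within 0.01 read, so reads were recovered, and the listed genes left out 2.93 to 3.98% of baseline reads and 4.25 to 4.71% of induction reads.

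Baseline and induction libraries were fitted separately with limma 3.58.1 (R 4.3.3) on log2(CPM + 1) over the 12 libraries of each, with an empirical Bayes trend, for genes with at least 1 CPM in at least 3 libraries, with calls at a Benjamini-Hochberg adjusted p under 0.05 over all genes tested in a comparison. There were 9 comparisons, all two-sided. A pseudocount of 1 understates changes of low genes. The induction fit held litter as a block, since the labels give litters: 18 same-litter pairs had a median correlation of deviations across genes of 0.482 (-0.0119 to 0.747), 16 of them above 0.1. For baseline libraries sharing a number the median was -0.000715 (-0.349 to 0.344; 5 of 18 pairs above 0.1), and these were left unpaired. The library names of the cultures carry a further label that does not always follow this number, and pairing by that label was not checked. The procedure was tested on simulated data with known log2 fold changes of at least 1 in either direction. Smaller changes, such as those of most induction calls, were not simulated. Alternatives were edgeR 4.0.16 and DESeq2 1.42.0 on recovered reads, TMM scaling, other pseudocounts, no filter, only the 2 groups compared, the block added or removed, and each library left out.

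Values in every library are given for a fixed panel of members and for members called with an absolute log2 fold change of at least 1 and a group mean of at least 5 CPM, and of the pathway lists up to 4 called genes with the largest change in a comparison. The members and lists were chosen with earlier results of these data known. A ligand of the panel was not analysed here, and 1 tested member, which enters the counts, is not reported by itself. Promoters came from RefSeq on GRCr8.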

Additional observations from a re-analysis of the deposited data

How the results depend on the processing

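Of 91 member calls against tissue, 79 held under all 20 alternatives, 12 were lost under at least 1 and 0 changed direction. All 4 calls between day 7 and day 3 held, and DESeq2 called 10 members there. None of the 11 induction calls held under all alternatives. Without the replicate block, 0 members were called in each induction comparison: at 2 h (1 with it), at 48 h (6), from 2 h to 12 h (3) and from 12 h to 48 h (1). With the replicate block in the baseline, 30, 31 and 30 members were called at days 3, 5 and 7, as without it, and 4 between day 7 and day 3, but Smad5 lost its calls at day 3 (adjusted p = 0.0537) and day 7 (0.0539), while Bmp7 at day 3 (0.0412) and Acvr2b at day 7 (0.0400) passed. At 2 h, no filter, TMM scaling and edgeR called 0 members, DESeq2 called 2 and the 2 groups alone 4. At 48 h no filter called 3 members. From 2 h to 12 h, no filter and the 2 groups alone called 0. From 12 h to 48 h, no filter and the 2 groups alone called 0 and DESeq2 called 6. Leaving out each library in turn called 26 to 34 members at day 3, 30 to 32 at day 5, 25 to 31 at day 7, 4 to 8 between day 7 and day 3, 0 to 3 at 2 h, 0 at 12 h, 1 to 8 at 48 h, 0 to 3 from 2 h to 12 h and 0 to 1 from 12 h to 48 h. The causes of these changes were not tested. With 3 libraries a group, and 1 litter in the baseline, precision is limited, and members under 1 CPM were not tested at this depth.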
